A study of Mus musculus with 14 samples.

Results

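The 500 sites described here are the places in the genome where the transcription factor ONECUT2 gave the strongest ChIP signal in untreated small intestinal organoids, and they are called control-bound sites below. They were chosen from the 7268 sites of the authors' deposited table of ONECUT2 binding as those with the highest mean in control organoids, with no tie at the edge. Because that mean chose the sites, every ONECUT2 value of the same comparison is a description and was not tested. The table lists only sites that differed between treated and control organoids at a false discovery rate (FDR) of up to 0.0496, and the ranks of its p-values imply 7734 sites tested. The other 466 are not analysed here, so strongly bound sites that did not pass that threshold may be missing.

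ONECUT2 belongs to the ONECUT (HNF6) family, whose members bind DNA through a cut domain and a homeodomain and act in liver, pancreas, gut and neurons together with other endodermal regulators such as HNF4A and FOXA2. Microfold (M) cells, which the cytokine RANKL induces, sample luminal antigen and pass it to underlying lymphoid tissue. H3K27ac, an acetyl mark on a lysine of histone H3, is found at active promoters and enhancers.

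All libraries came from 1 organoid line, labelled line26 wild type, derived from the small intestine of a female Lgr5GFPDTR/+ mouse, and both arms carry that allele, a reporter and toxin receptor inserted in 1 copy of Lgr5. Control organoids stayed in ENR, a medium with EGF, Noggin and R-spondin 1. Organoids of the RANKL arm had 3 µM CHIR99021 (a Wnt pathway activator) and 1.5 mM valproic acid (a histone deacetylase inhibitor) for 3 days, then 1 day of ENR, then 100 ng/mL RANKL, and were collected on day 6, so the contrast is of the whole protocol with ENR and not of RANKL alone. Each arm had 3 H3K27ac and 3 ONECUT2 libraries, from 3 independent differentiation experiments, made by ChIPmentation, in which a transposase adds the adapters on the antibody-bound chromatin.

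H3K27ac was counted over 55050 regions of 2000 bp, with 5434172 to 9160267 reads per control library and 2745451 to 3902301 reads per RANKL library. As a check of the labelled tissue, all 12 epithelial marker genes, Epcam and Cdh1 among them, had an H3K27ac region within 2 kb, with a summed signal of 1950 to 2176 CPM (reads scaled to library size) in control and 1626 to 1777 CPM in RANKL libraries. Leukocyte markers (6 of 9 genes with a region, 96.4 to 107 CPM in control and 118 to 127 CPM with RANKL), mesenchymal markers (9 of 12, 64.5 to 73.5 CPM and 54.3 to 82.5 CPM) and endothelial markers (7 of 10, 294 to 318 CPM and 265 to 289 CPM) summed to far less, and Laptm5, Cd3e, Lyz2, Col1a2, Thy1, Lum, Tie1, Kdr and Cldn5 had no region. These are mixed cell populations, so a change in the share of a cell type and a change per cell cannot be told apart.

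The letters under the control-bound sites could be read where a site falls in a RefSeq promoter window (build GRCm38.p6, 250 bases before to 50 after a gene's start). The windows do not cover every gene, and 40 of the 500 sites overlapped 45 of them. For 20 sites the central 61 bases lay wholly inside a window. The 10 with the highest control mean among the 13 that end before the gene's start are shown, read 5′ to 3′ on the strand of the gene, with capitals marking 3 short sequences. The first is ATTGAT, which on the opposite strand reads as ATCAAT. The next is the palindrome ATCGAT. The last is GTCGAT, for which the opposite strand reads as ATCGAC.
Os9, chr10:127121278-127121338, minus strand: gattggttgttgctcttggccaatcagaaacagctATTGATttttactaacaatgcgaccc
Taok3, chr5:117119921-117119981, plus strand: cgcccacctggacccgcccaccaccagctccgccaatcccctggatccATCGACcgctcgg
Tspan12, chr6:21852648-21852708, minus strand: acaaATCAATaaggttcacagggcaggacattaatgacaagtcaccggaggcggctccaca
Evi5l, chr8:4166322-4166382, plus strand: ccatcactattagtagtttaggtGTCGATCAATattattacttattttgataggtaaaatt
Uckl1, chr2:181582105-181582165, minus strand: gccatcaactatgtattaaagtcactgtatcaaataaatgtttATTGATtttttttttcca
Swsap1, chr9:21955551-21955611, plus strand: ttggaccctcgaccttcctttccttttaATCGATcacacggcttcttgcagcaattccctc
Hnf4a, chr2:163506758-163506818, plus strand: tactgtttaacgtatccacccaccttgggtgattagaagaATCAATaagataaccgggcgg
Cyp3a13, chr5:137921768-137921828, minus strand: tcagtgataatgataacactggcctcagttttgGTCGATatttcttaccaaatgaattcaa
Scfd2, chr5:74531854-74531914, minus strand: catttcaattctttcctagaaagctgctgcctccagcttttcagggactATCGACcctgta
Actr6, chr10:89732415-89732475, minus strand: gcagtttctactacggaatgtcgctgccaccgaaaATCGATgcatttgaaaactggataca

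ATTGAT is the core of the sequence the ONECUT family is known to bind, and ATCGAT is a related cut-domain sequence. Of the 20 central stretches, 9 held ATTGAT and 7 held ATCGAT, and none of the 45 windows held both. One or the other was thus in 16 of 20 stretches (80%), against 56 of 117 (47.9%) at the other listed sites and 1.63% of the middle 61 bases of all 21262 windows. In Evi5l, GTCGAT and ATCAAT share letters. GTCGAT was searched only after the 4 stretches with neither sequence (Pou2f1, Taok3, Cyp3a13 and Scfd2) had been read, and all 4 held it. That count is given by the choice of GTCGAT, which was not picked as a known ONECUT sequence, so it cannot be compared with other sites. Among the 61 such stretches at the other listed sites, 12 held GTCGAT, as did 98 of the 20916 middle stretches of all windows with neither sequence. A match describes the letters and not the binding event, and promoter windows are a small and particular subset of the 500 sites.

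Over whole windows of 300 bases, 24 of the 45 at control-bound sites held ATTGAT or ATCGAT (53.3%), against 42.0% at other listed sites, 4.53% of windows overlapping an H3K27ac region and 7.34% of all windows. The matches sat near the middle of the binding site. Inside the sites they occurred 2.60 times per kb of window sequence, and outside them, in the same windows, 0.429 times per kb. Their median distance from the site's centre was 15.5 bp. At the other listed sites the rates were 2.17 inside and 0.0333 outside, with a median distance of 23.5 bp. The rate outside control-bound sites rests on 2 matches, and that outside the other listed sites on 1. The 45 pairs of control-bound site and window cover 40 sites, so some count repeatedly. A further 12 motifs were searched on both strands, for NF-kB and CTCF without their letters shown. CCAAT (the NFY box) was in 62.2% of windows at control-bound sites, against 47.8% at other listed sites and 39.1% of windows in H3K27ac regions. GGGCGG (the SP and KLF box) was in 68.9%, 59.0% and 66.5% of the same sets, and CCGGAAG (ETS) in 28.9%, 16.4% and 18.9%. The AP-1 motif TGANTCA was in 11.1% of windows at control-bound sites (5 of 45), against 4.78% and 4.79%, and the GATA motif AGATAAG in 6.67% (3 of 45), against 1.37% and 1.58%. The CDX motif TTTATNG, which can overlap ATTGAT, was in 13.3%, 15.4% and 6.67%. CAAAGTCCA (HNF4), GCGCATGCG (NRF1), CTTTGATC (TCF), AAGATGGCG (YY1) and the CTCF motif were each in at most 3 of the 45 windows, and the NF-kB motif was in 0 of 45, against 0.341% and 0.411%.

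In the authors' deposited table, the control mean of the 500 sites ran from 4.93 to 7.99 on the log2 scale of normalised reads, with a median of 5.52, which is 45.8 reads. The median control mean of the other 6768 sites was 2.53 in the authors' deposited table. With RANKL, the authors' deposited table gives the control-bound sites a median of 6.92, or 121 reads, with a range of 4.32 to 8.50. Of the 500 sites, 372 (74.4%) were also among the 500 sites with the highest RANKL mean of the authors' deposited table, and the lowest RANKL rank of any was 4999.

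ONECUT2 binding was listed as higher with RANKL at 496 of the 500 sites and as lower at 4, in a table where 93.9% of the sites tested were listed as higher and 0.0905% as lower. The choice of sites used this contrast, so nothing is read from those counts. The listed increase was smaller than elsewhere: the median log2 fold of the authors' deposited table was 1.22 (2.34-fold) at control-bound sites, with quartiles of 0.95 and 1.54. For the other sites the authors' deposited table gives a median of 1.91 (3.76-fold), and for the 500 sites with the lowest control mean 2.95 (7.72-fold). A fold of at least 2 was listed at 72.8% of control-bound and 97.2% of other sites in the authors' deposited table. A site chosen for a high control mean has a lower ratio to it by construction, and the part of that in these values was not tested.

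**Figure D1:**
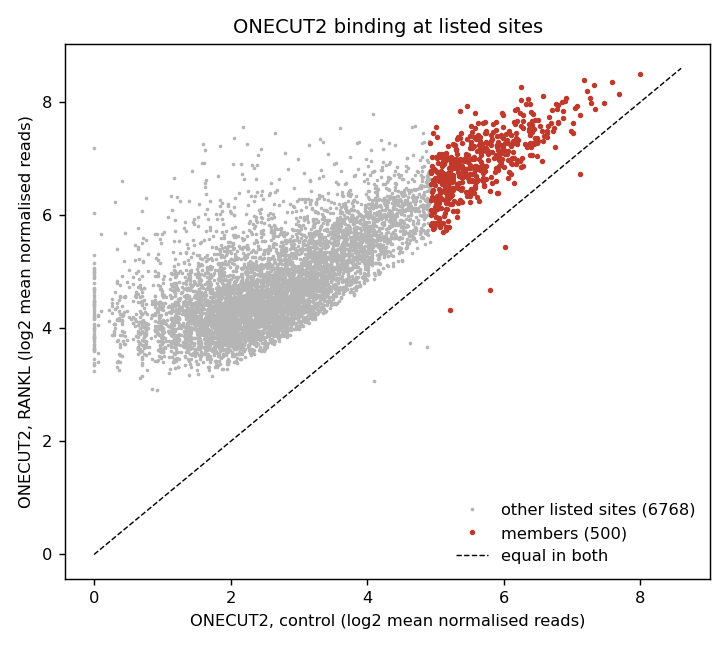
ONECUT2 binding at 7268 listed sites, control mean (x axis) against RANKL mean (y axis), both in log2 mean normalised reads from the authors' deposited table. Red points are the 500 control-bound sites, grey points the other 6768, and the dashed line marks equal binding in both arms, with 4 red points below it.

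The edge of the group is a cut through a continuous range. The last 3 sites inside, at Rps6ka5, Camk1g and Tex33, each had a control mean of 4.93 in the authors' deposited table. The first 3 outside, near A630076J17Rik, in Kank1 and 383 kb from Zfp703, had control means of 4.93, 4.92 and 4.92 there, so nothing separates them from the last sites inside.

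The strongest control binding lay at the promoter of Os9 (chr10:127121108-127121508), which codes for a lectin of endoplasmic reticulum quality control, with a control mean of 7.99, a RANKL mean of 8.50 and a log2 fold of 0.50 in the authors' deposited table. It ranked first in both arms. The promoter of Churc1 (chr12:76765319-76765719), a zinc-finger gene, followed with 7.69, 8.15 and 0.46 in the authors' deposited table. The next was a site 13.5 kb from Smndc1 (chr19:53404177-53404577), a splicing factor gene, with 7.59, 8.35 and 0.76 in the authors' deposited table.
The other 7 of the first 10 lay 0.695 kb from Arrdc4 (an arrestin-domain gene), 26.4 kb from Cyb5a (cytochrome b5), in Rnf19a (a ubiquitin ligase gene), in Bcl7a (a subunit of the BAF chromatin remodeller), in Prdm16 (a zinc-finger transcriptional regulator), 409 kb from Acvr2a and 48.8 kb from Stac. Their control means were 7.17 to 7.47 and their log2 folds 0.51 to 1.21 in the authors' deposited table. None of these 10 genes is on a list of intestinal cell type or M cell genes used here.

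The 4 sites that were lower with RANKL are among only 7 such sites in the authors' deposited table. They lay 15.3 kb from Rabep1 (Rabaptin-5, of endosome fusion), 48.6 kb from E330021D16Rik, 107 kb from Cdh26 (a cadherin) and in Rad51b (a DNA repair gene). Their log2 folds in the authors' deposited table were -1.09, -0.86, -0.57 and -0.39 in that order. The largest increases in the authors' deposited table were at Pkp4 (2.51; plakophilin 4, a cell junction protein), Tnks (2.46; tankyrase, which acts on axin in Wnt signalling), Tm4sf20 (2.46), a site 190 kb from Klf14 (2.42) and Prr14 (2.33). At these 5 sites the control means of 4.96 to 5.47 lay in the lower part of the group's range in the authors' deposited table.

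Location was not used to choose the sites. A protein-coding gene span was overlapped by 52.6% of control-bound sites, 50.5% of other listed sites and 46% of the 500 sites with the lowest control mean. Within 2 kb of a gene end (either end, since the gene spans used carry no strand and exons were not resolved) lay 97 control-bound sites (19.4%), against 16.4% and 7.4%. Only 8% had no protein-coding gene within 100 kb, against 11.6% and 22.2%. The control-bound sites were thus somewhat nearer to genes, with a median of 13.5 kb to the nearest gene end against 18.9 and 38.9 kb, but 403 of 500 were away from gene ends. These are shares of sites, which are not replicates, and were not tested.

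The 500 sites were spread over the genome. Chromosome 11 held the most (44), chromosome X held 3 (0.6%, against 2.33% of other sites), and 4 lay on unplaced scaffolds (3 of them on Un_JH584304), against 6 of the other 6768. Another control-bound site lay within 10 kb of 12, and another listed site within 10 kb of 14.8%, against 9.87% for other sites. Assigned to the nearest protein-coding gene within 100 kb, 460 sites fell to 438 genes, which is 2.00% of the 21896 gene spans. Of these genes 21 had more than 1, and only Prdm16 had 3, with control means of 7.27, 6.57 and 5.93 in the authors' deposited table.

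An H3K27ac region was overlapped by 383 of the 500 sites (76.6%), against 37.9% of other listed sites and 22.6% of those with the lowest control mean. Away from gene ends 75.4% of control-bound and 33.6% of other sites overlapped a region, and at gene ends 81.4% and 60.0%. Inside the regions the sites sat close to the centre, at a median of 91 bp, against 172 bp for other sites and 212 bp for the lowest 500. Regions were about 2000 bp long, so both distances are short.
The overlapped regions were also strong in control organoids, with a median of 25.3 CPM, against 15.5 CPM for regions at other listed sites and 8.52 CPM for all 54765 regions tested. Of the 382 distinct regions (1 held a pair of sites), 61.8% were among the strongest 30.0% of all regions. Across the control-bound sites themselves, the ONECUT2 control mean and the H3K27ac control level were only weakly related (Pearson r = 0.16 over 383 sites, a description over sites that share libraries).

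**Figure D2:**
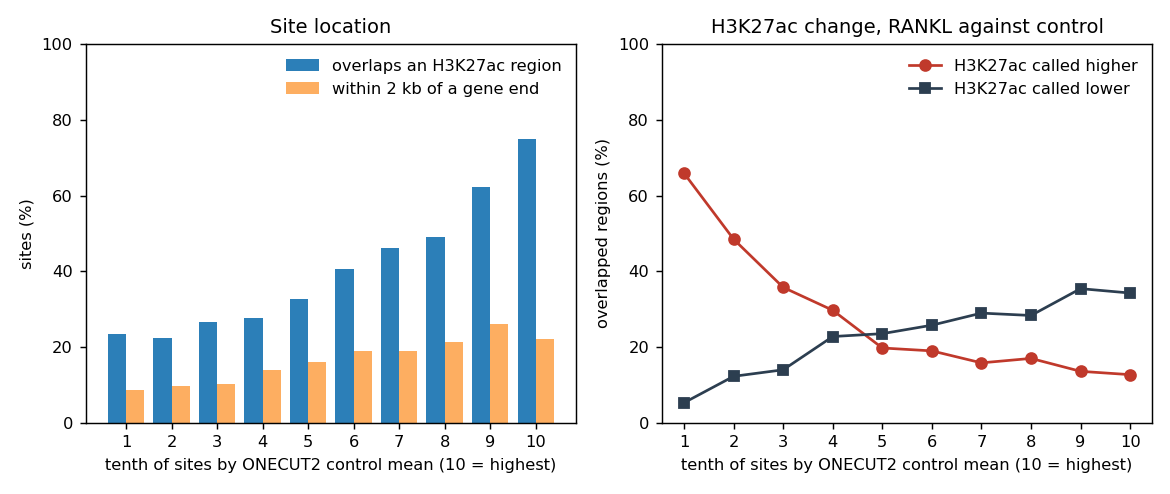
All listed sites in 10 groups of about equal size by the ONECUT2 control mean (x axis, 10 is the highest). Left, the share of sites in % that overlap an H3K27ac region (rising from 23.4% to 74.8%) or lie within 2 kb of a gene end; right, the share in % of overlapped regions called higher (falling from 65.9% to 12.7%) or lower (rising from 5.29% to 34.3%) in H3K27ac with RANKL by edgeR. The list was filtered on the RANKL contrast, so sites low in control (group 1, median ONECUT2 log2 fold 2.83) are listed for their gain with RANKL. The median control H3K27ac of overlapped regions also rose, from 4.96 CPM in group 1 to 25.0 CPM in group 10. Neither was adjusted for.

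H3K27ac was tested between 3 RANKL and 3 control libraries, measurements that the choice of sites did not use, with edgeR over all regions and an adjusted p under 0.05 as the call. Of the 382 regions at control-bound sites, 56 were called higher with RANKL (14.7%), against 14.8% of all regions, and 127 lower (33.2%), against 21%. The share called higher was thus near the background. Their median log2 fold was -0.127, against 0.057 over all regions. At least a 2-fold change was fitted in 14 of the higher and 26 of the lower of these 382 regions. Over all 54765 regions tested, it was fitted in 4122 of those called higher and 2124 of those called lower. Before any scaling, the 382 regions together took 1.30% ± 0.030 of all region reads in control and 1.28% ± 0.014 with RANKL (SD, n = 3 each). The folds and calls use TMM-scaled library sizes instead. On that scale the median signal of these regions was 25.3 CPM in control and 23.4 CPM with RANKL.

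The counts depended on how signal strength was handled. Among the strongest 30.0% of regions, 39.4% of the 236 regions at control-bound sites were called lower, against 50.4% of all such regions, and 15.3% against 14.1% were called higher. Among the weaker regions, 23.3% of 146 were called lower, against 8.46% of all such regions, and 13.7% against 15.2% higher. These sets were not matched for signal. With all regions in 10 groups of about equal size by rising signal, groups 1 to 3 held 2, 4 and 2 of the 146. At most 0.475% of all regions there were called lower. In group 4, 1 of 12 was lower against 2.81% of all regions, and in group 5, 1 of 21 against 7.78%. In group 6 it was 6 of 42 against 17.9%, and in group 7, 26 of 63 against 29.7%. The part of signal in the pooled difference was not tested. With the trend of fold on signal removed, 100 regions were called higher (26.2%, against 15.5% of all regions) and 80 lower (20.9%, against 15.2%), and the median became 0.044. On that fit 19.5% of the 236 strongest regions were lower, against 28.6% of all such regions, and 33.5% against 26.5% were higher. Of the 146 weaker regions 23.3% were lower, against 9.44% of all such regions, and 14.4% against 10.8% were higher. Scaled by library size only, 73 were called higher and 105 lower. So H3K27ac fell at more of these regions than it rose with TMM scaling, and rose at more than it fell once the trend was removed.

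**Figure D3:**
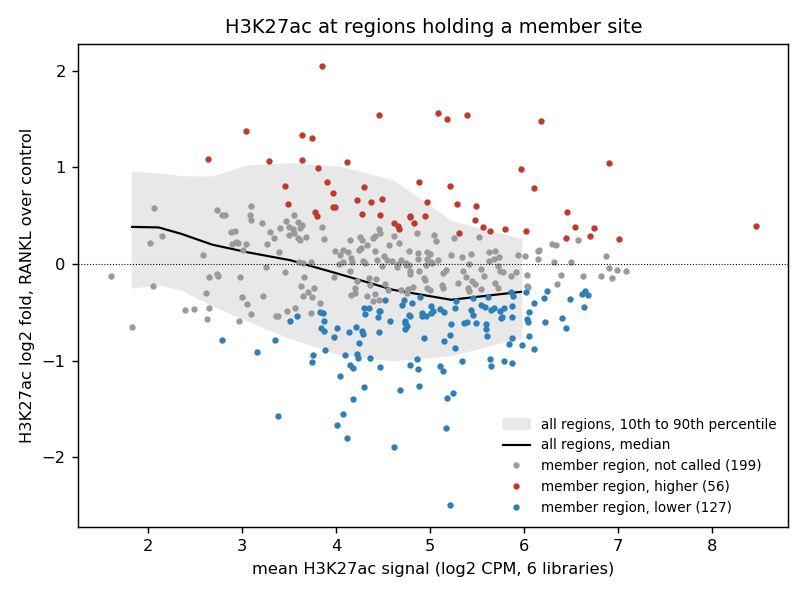
H3K27ac log2 fold, RANKL over control (y axis), against mean signal in log2 CPM (x axis) for 382 regions at control-bound sites, coloured by edgeR call: 56 higher, 127 lower and 199 not called. The black line and grey band are the median and the 10th to 90th percentile of all regions tested, and the line falls from left to right before it levels off.

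H3K27ac calls were set beside the ONECUT2 values of the same sites. Regions at the 372 sites that were also in the RANKL 500 were called higher in 54 and lower in 84 of 281 cases, and those at the remaining 128 sites in 2 and 43 of 101, where 14.8% and 21% of all regions were called. With the signal trend removed these became 90 higher and 52 lower of 281, and 10 higher and 28 lower of 101. That fit called 15.5% of all regions higher and 15.2% lower. The balance thus turned in the first set and not in the other. The sets were split by the RANKL mean of the ONECUT2 contrast that chose the sites, and their difference was not tested. Grouped by H3K27ac call, the median log2 fold of ONECUT2 in the authors' deposited table was 1.56 at 57 sites in higher regions, 1.29 at 199 sites in regions not called, and 1.07 at 127 sites in lower regions. At the 117 sites with no region it was 1.29 in the authors' deposited table. Over the 383 sites with a region, the ONECUT2 and H3K27ac log2 folds had a Pearson r of 0.50, given as a description across sites of the same organoid cultures. Regions at gene ends were called lower in 42 of 79 cases (53.2%) and higher in 6, and those away from gene ends lower in 85 of 303 (28.1%) and higher in 50. Of those at gene ends, 50.6% were among the strongest 10.0% of regions, where 52.2% of all regions were called lower. With the trend removed, 21 (26.6%) at gene ends were lower and 17 (21.5%) higher. Away from them 59 (19.5%) were lower and 83 (27.4%) higher, where 15.2% and 15.5% of all regions were.

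**Figure D4:**
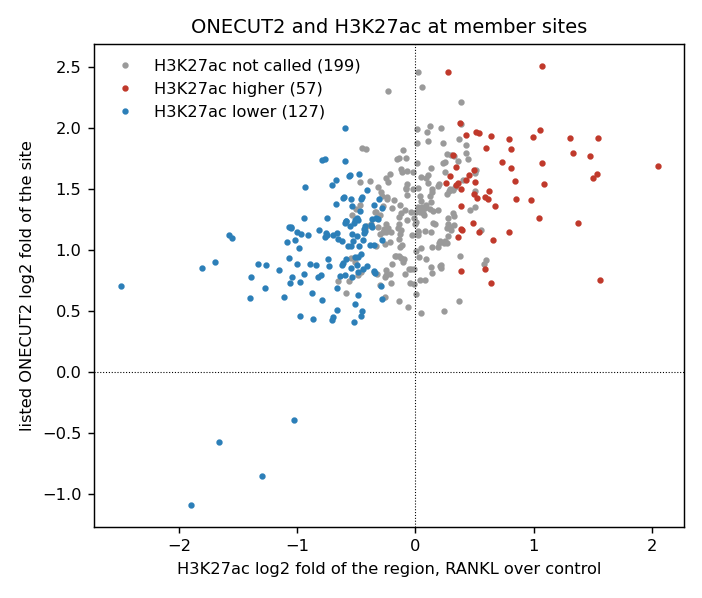
H3K27ac log2 fold of the region (x axis) against the ONECUT2 log2 fold of the site in the authors' deposited table (y axis) for 383 control-bound sites, coloured by the edgeR call for H3K27ac. The 4 sites with a negative ONECUT2 fold all lie in regions called lower.

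All 4 sites with less ONECUT2 lay in regions that lost H3K27ac. At the Rabep1 site the control libraries had 31.1, 33.8 and 40.5 CPM and the RANKL libraries 8.93, 13.3 and 6.51 CPM, a log2 fold of -1.90 ± 0.17 (SE, edgeR adjusted p = 3.75e-24). The groups did not overlap. At E330021D16Rik the log2 fold was -1.30 ± 0.16 (SE, edgeR adjusted p = 2.96e-14), at Cdh26 -1.67 ± 0.21 (edgeR adjusted p = 2.20e-13) and at Rad51b -1.03 ± 0.12 (edgeR adjusted p = 6.04e-16).
Of the 5 sites with the largest ONECUT2 gain, only Pkp4 lay in a region that was called higher under every alternative tried. That region went from 6.57 ± 2.04 to 13.5 ± 3.74 CPM (SD, n = 3). The site far from Klf14 had no region. Tm4sf20 was called higher at a log2 fold of 0.27 ± 0.11 (SE, edgeR adjusted p = 0.033), but the call was lost with the experiment number as a block (edgeR adjusted p = 0.063) and without control library 3 (edgeR adjusted p = 0.13) or any 1 RANKL library (edgeR adjusted p = 0.072, 0.085 and 0.078). DESeq2 size factors ended the Tm4sf20 call too (edgeR adjusted p = 0.055). Tnks, at 17.7 ± 1.09 and 17.4 ± 5.48 CPM, and Prr14, at 69.8 ± 5.75 and 72.3 ± 6.52 CPM, were not called, although Prr14 was called higher with the signal trend removed.

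Among the regions at control-bound sites, the 7 higher ones described here, chosen by the smallest adjusted p, include regulators of signalling. Regions chosen that way tend to have groups that lie apart, so gaps between the groups below follow largely from the choice. Smad6 codes for an inhibitor of BMP signalling, and the region 27.3 kb from it (chr9:64048888-64050888) had 39.6, 41.3 and 37.5 CPM in control and 119, 112 and 101 CPM in RANKL libraries. Its log2 fold was 1.48 ± 0.11 (SE, edgeR adjusted p = 3.10e-34), and the lowest RANKL library was well above the highest control library. The site there had control and RANKL means of 6.25 and 8.05 in the authors' deposited table.
Map3k14 codes for NIK, the kinase of the non-canonical NF-kB pathway, which acts below the RANKL receptor. The region inside the gene (chr11:103225388-103227388) had 25.3, 20.8 and 22.1 CPM in control and 73.2, 60.98 and 63.2 CPM in RANKL libraries, a log2 fold of 1.54 ± 0.12 (SE, edgeR adjusted p = 4.59e-31). The groups were again far apart, and ONECUT2 there was 6.33 in control and 7.96 with RANKL in the authors' deposited table.
The region 23.9 kb from Epcam (chr17:87610677-87612677), the epithelial adhesion gene, went from 48.7, 41.3 and 39.6 CPM to 89.6, 77.6 and 87.5 CPM, and the groups did not overlap.
The remaining 4 were Smndc1 (18.2 ± 1.36 to 53.6 ± 6.33 CPM, mean and SD, n = 3), Vash2 (19.8 ± 2.68 to 56.7 ± 9.09 CPM), a region 60.0 kb from Prkch (11.99 ± 0.766 to 34.7 ± 0.766 CPM) and one 615 kb from Fat1 (6.15 ± 0.492 to 25.7 ± 2.49 CPM), a log2 fold of 2.05 for the last. Smndc1 is the one case among the 10 most strongly bound sites in which H3K27ac rose, and its ONECUT2 log2 fold was 0.76 in the authors' deposited table.

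The region that fell most was inside Lgr5, an intestinal stem cell marker that codes for a receptor of R-spondins (chr10:115504935-115506935). It had 64.4, 53.1 and 56.3 CPM in control and 10.4, 8.15 and 11.8 CPM in RANKL libraries, a log2 fold of -2.49 ± 0.15 (SE, edgeR adjusted p = 8.19e-49). Every RANKL library was below every control library by a wide margin. ONECUT2 binding at this site was listed as higher: the authors' deposited table gives 5.88 in control, 6.60 with RANKL and a log2 fold of 0.71. The line carries an inserted sequence in 1 copy of this gene in both arms.
The other 7 of the 8 lower regions with the smallest adjusted p were at Efna4 (an ephrin; 51.2 ± 2.87 to 15.9 ± 4.83 CPM, SD, n = 3), Rabep1, Me3 (mitochondrial malic enzyme; 49.6 ± 1.06 to 18.8 ± 2.22 CPM), Cbx8 (a Polycomb protein, 12.3 kb away; 51.3 ± 1.96 to 19.9 ± 4.63 CPM), Vwa2 (23.9 ± 2.05 to 7.06 ± 1.81 CPM), Rad51b (76.1 ± 5.95 to 36.9 ± 2.94 CPM) and Mindy4 (65.3 ± 2.35 to 31.5 ± 3.66 CPM). At 6 of these 8 ONECUT2 was listed as higher in the authors' deposited table, with log2 folds of 0.71 to 0.90, and at Rabep1 and Rad51b as lower. All 15 regions kept their direction and call under every alternative tried, the removal of the signal trend and the experiment block included. Since they were chosen by the smallest adjusted p, separate groups and stable calls follow largely from that choice.

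**Figure D5:**
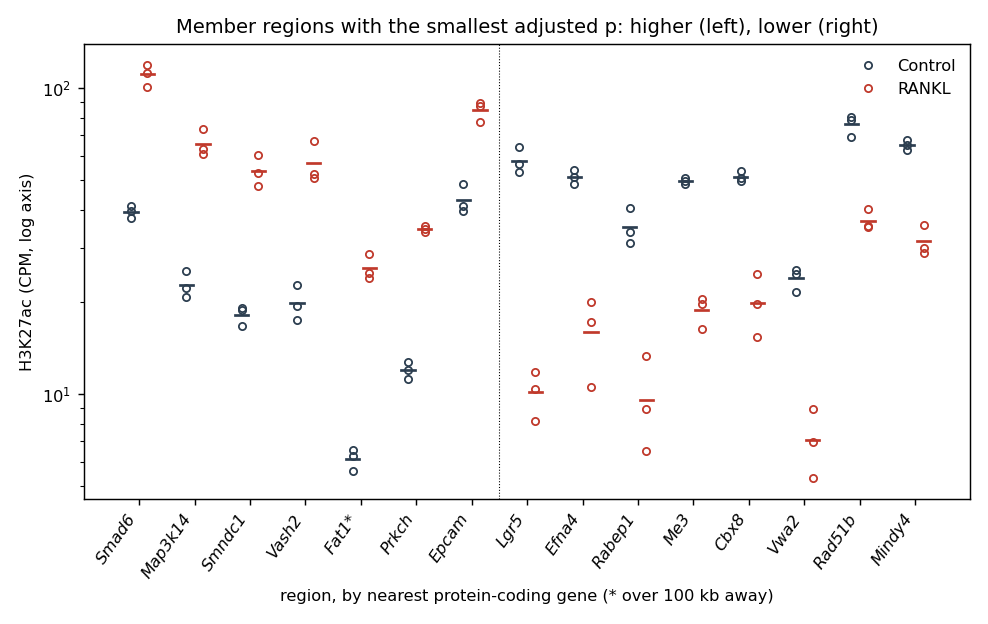
H3K27ac in CPM (log axis) at the 7 higher (left) and 8 lower (right) regions at control-bound sites described in the text, labelled by nearest protein-coding gene. Circles are single libraries (3 control, 3 RANKL) and bars are group means. In all 15 regions the groups do not overlap, which follows largely from their choice by the smallest adjusted p.

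The first 10 sites by ONECUT2 in control showed mixed H3K27ac. At Arrdc4 the control libraries had 108, 96.9 and 110 CPM and the RANKL libraries 66.0, 74.9 and 58.4 CPM, a log2 fold of -0.66 ± 0.11 (SE, edgeR adjusted p = 3.19e-08). At Churc1 it was -0.46 ± 0.13 (edgeR adjusted p = 0.0014) and at Os9 -0.45 ± 0.17 (edgeR adjusted p = 0.023). With the signal trend removed Churc1 (edgeR adjusted p = 0.45) and Os9 (edgeR adjusted p = 0.24) were no longer called, and Arrdc4 was.
The Os9 call was also lost without control library 2 (edgeR adjusted p = 0.069), control library 3 (edgeR adjusted p = 0.065) or RANKL library 1 (edgeR adjusted p = 0.10). Library size only (edgeR adjusted p = 0.088) and DESeq2's Wald test (adjusted p = 0.081) ended the Os9 call too. Stac (log2 fold -0.38 ± 0.16, edgeR adjusted p = 0.046) lost its call with the block (edgeR adjusted p = 0.068) and without any 1 library other than RANKL library 2 (edgeR adjusted p = 0.068 to edgeR adjusted p = 0.28). The Stac call was also lost with the signal trend removed (edgeR adjusted p = 0.505) and with library size only (edgeR adjusted p = 0.15). DESeq2 size factors (edgeR adjusted p = 0.053) and DESeq2's Wald test (adjusted p = 0.15) ended it too. Cyb5a (36.9 ± 5.06 and 35.0 ± 3.90 CPM, SD, n = 3) and the first Prdm16 site (45.2 ± 1.92 and 37.9 ± 2.20 CPM) were not called, and Rnf19a, Bcl7a and the site far from Acvr2a had no region. The second Prdm16 site was called higher at a log2 fold of 0.34 ± 0.11 (edgeR adjusted p = 0.0085), a call lost without RANKL library 2 (edgeR adjusted p = 0.13), and the third was not called.

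The regions with the most H3K27ac at control-bound sites were on the unplaced scaffold Un_JH584304 (310 ± 63.0 CPM in control and 404 ± 42.2 CPM with RANKL, SD, n = 3) and at Tmem125, Pla2g6 and Arpin (118 to 140 CPM in control). Reads on unplaced scaffolds can come from repeated sequence, so the first is uncertain, and its call as higher was lost with DESeq2's Wald test (adjusted p = 0.16). Tmem125 and Pla2g6 were not called. Arpin, which codes for an inhibitor of the Arp2/3 complex, was called higher at 0.26 ± 0.10 (SE, edgeR adjusted p = 0.036), and lost that call with the block (edgeR adjusted p = 0.086) and without control library 3 (edgeR adjusted p = 0.073), RANKL library 2 (edgeR adjusted p = 0.19) or RANKL library 3 (edgeR adjusted p = 0.11). DESeq2 size factors ended the Arpin call too (edgeR adjusted p = 0.066).

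Genes were grouped by 14 lists, and each count is of genes that were the nearest gene to a control-bound site, beside 2.00% of all protein-coding genes. In the list of the ONECUT family and its partners 3 of 11 genes had one: Hnf4a, Hnf4g and Foxa2, and none of Onecut1, Onecut2 and Onecut3 did. The site in Hnf4a, the nuclear receptor of the enterocyte programme, had 5.70 in control and 6.75 with RANKL in the authors' deposited table. Its region held 52.6, 47.6 and 46.9 CPM in control and 42.8, 33.5 and 30.6 CPM in RANKL libraries, a log2 fold of -0.48 ± 0.12 (SE, edgeR adjusted p = 0.00056). The groups did not overlap, but the call was lost with the signal trend removed (edgeR adjusted p = 0.30).
The site 3.99 kb from Hnf4g went from 6.19 to 7.33 in the authors' deposited table, and its H3K27ac (31.8 ± 0.416 and 32.0 ± 2.43 CPM, SD, n = 3) was not called with TMM and was called higher with the trend removed (edgeR adjusted p = 0.034), a call that the experiment block ended (edgeR adjusted p = 0.055). Foxa2, the pioneer factor, had sites at 18.3 and 80.8 kb with control means of 5.64 and 5.14 in the authors' deposited table. The region of the farther one fell from 17.8 ± 0.901 to 9.50 ± 2.34 CPM (SD, n = 3; edgeR adjusted p = 9.99e-05), and that of the nearer one was not called (7.28 ± 2.26 and 9.74 ± 2.79 CPM).

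None of 24 M cell genes had a control-bound site, and 10 of them had another listed site. Of all 21896 protein-coding genes, 438 had a control-bound site and 4294 another listed site. With so small a share over all genes, a count of 0 in a list of 24 is not read as a result. In the NF-kB list 2 of 26 genes had a control-bound site, Map3k14 and Nfkbiz, which codes for an atypical inhibitor of NF-kB. Nfkbiz had 5.02 in control and 6.66 with RANKL in the authors' deposited table, and its region (30.8 ± 2.98 and 33.2 ± 4.14 CPM, SD, n = 3) was called only with the signal trend removed (edgeR adjusted p = 0.0065). Among stem cell and Wnt genes 2 of 21 had one, Lgr5 and Lrig1, a stem cell marker that limits growth factor signalling, whose site went from 5.07 to 5.78 in the authors' deposited table and had no region.
Intestinal transcription factors had 2 of 22, Klf4 and Nr1h4 (the bile acid receptor FXR), and enterocyte genes 2 of 30, Slc15a1 (the peptide transporter) and Krt20 (a keratin of mature cells). H3K27ac at Klf4 (6.51 ± 1.97 and 7.78 ± 3.22 CPM, SD, n = 3) and Nr1h4 (34.4 ± 1.63 and 28.4 ± 5.55 CPM) was not called, and the Slc15a1 and Krt20 sites had no region. Of 17 enteroendocrine and tuft genes only Pou2f3, the tuft cell regulator, had one. Its region had 21.6, 19.3 and 21.9 CPM in control and 13.6, 8.45 and 10.9 CPM in RANKL libraries, a log2 fold of -0.94 ± 0.19 (SE, edgeR adjusted p = 8.59e-06), while ONECUT2 was listed at 5.58 in control and 6.86 with RANKL in the authors' deposited table.
Epithelial markers had 4 of 12: Epcam, Cdh1, Hnf4a and Tmprss2. Tmprss2, a surface protease gene, had 6.46 in control and 7.36 with RANKL in the authors' deposited table, its region was not called (54.7 ± 6.74 and 47.6 ± 1.91 CPM, SD, n = 3), and the Cdh1 site had no region. Leukocyte markers had 1 of 9 (Itgam, 9.75 kb away, no region). Goblet and Paneth (15 genes), cell cycle (15), mesenchymal (12), endothelial (10) and housekeeping (12) lists had none.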

How the data were processed

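ONECUT2 and H3K27ac ChIPmentation files of 12 libraries were used, and 2 inputs were not analysed here. H3K27ac values are raw read counts per region deposited by the authors. ONECUT2 values are the authors' deposited table of a DiffBind comparison (mm10, per the submitters' processing notes), with log2 mean normalised reads, a log2 fold and p-value and FDR columns per site. The aligner, peak caller, duplicate handling and DiffBind version were not given in the sources used here. ONECUT2 values of single libraries were not used here. H3K27ac start positions are printed as deposited, and whether they count from 0 is not stated.

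Regions were tested with edgeR 4.0.16 (R 4.3.3; quasi-likelihood, TMM, filterByExpr, Benjamini-Hochberg over 54765 regions, threshold 0.05). CPM uses TMM-scaled library sizes. The method was tested on simulated data, and the share of changed regions it had to recover was lowered after the first run, in which fewer were recovered than required. Overlap meant at least 1 bp. Genes were RefSeq protein-coding spans (GRCm38.p6) without strand, and a site may act on a gene other than the nearest. The labels number libraries of both arms by differentiation experiment, which pairs them. Same-numbered libraries had deviation correlations of 0.014, -0.027 and -0.0073. Replicates of a group differed by more than sampling noise (chi-square per degree of freedom 1.80 to 2.06). All libraries come from 1 mouse line, so p-values measure the spread between experiments.

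The sites, lists and tests were chosen with earlier results of these data known. The text names the 10 sites with the highest control mean, 3 sites either side of the edge, sites with a negative fold and the 5 largest folds, the 8 higher and 8 lower regions with the smallest adjusted p, the 4 strongest regions, genes with 3 or more sites and list genes with a site. Of these, 1 higher region is not reported here, and 2 genes were left out of the lists. Alternatives were library size, DESeq2 1.42.0 size factors and its Wald test, no filter, removal of the signal trend by loess offsets, the experiment block, each library left out, other overlaps, distances and site numbers, and a deposited FDR under 0.01.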

Additional observations from a re-analysis of the deposited data

How the results depend on the processing

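Among 382 regions at control-bound sites, 56 (14.7%) were called higher and 127 (33.2%) lower in H3K27ac. The replicate block gave 53 (13.9%) and 119 (31.2%) with a median log2 fold of -0.129, and of 42 named regions it changed the calls at Stac, Tm4sf20 and Arpin only. Removing the signal trend gave 100 higher (26.2%) and 80 lower (20.9%), and the median turned from -0.127 to 0.044. The replicate block with the signal trend removed gave 94 (24.6%), 75 (19.6%) and 0.045. Library size only gave a median of -0.032. Leaving out 1 library at a time gave medians of -0.149 to -0.0999, 47 to 57 higher (12.3% to 14.9%) and 111 to 120 lower (29.1% to 31.4%). DESeq2's Wald test gave 47 and 107. Counting regions within 1 kb raised the share of sites with a region from 76.6% to 83.6%. The share at gene ends was 14.6% within 1 kb, 31.6% within 5 kb and 24.2% for 1000 sites. The median ONECUT2 log2 fold of the authors' deposited table was 1.13 for 250 sites and 1.34 for 1000. Over the 42 named regions, 480 of 546 alternative values kept direction and call, 35 lost a call, 5 gained one, and 26 at 9 regions changed sign, with no call in either fit. With the signal trend removed the log2 folds were 0.037 at Nr1h4, 0.071 at Pla2g6, 0.11 at Tmprss2, 0.26 at Cyb5a, 0.026 at Tmem125 and 0.077 at the first Prdm16 site, and with the block as well 0.015, 0.069, 0.10, 0.26, 0.026 and 0.071. Library size only gave 0.043 at Pla2g6, 0.034 at Cyb5a and 0.022 at Tmem125, and the block alone -0.0075 at Tnks. Leaving out 1 library gave -0.19 to 0.033 at Pla2g6, -0.18 to 0.031 at Cyb5a, -0.042 to 0.068 at Hnf4g, -0.16 to 0.020 at Tmem125, -0.019 to 0.12 at Prr14 and -0.11 to 0.23 at Tnks. The causes were not tested. RANKL libraries had fewer reads than control libraries, and the part of depth in the calls was not tested. Leaving out unplaced scaffolds, added after seeing the data, gave 55 higher and 127 lower.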
